A study of Homo sapiens and Mus musculus with 36 samples.

Results

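MAP1B and 7 other genes of the neuronal microtubule system were followed through every library of a DOT1L study. The 8 genes are MAP1B, TUBB2A, TUBB2B, TUBB3, TUBB6, TUBA1A, STMN2 and DPYSL3, with their mouse orthologues Map1b, Tubb2a, Tubb2b, Tubb3, Tubb6, Tuba1a, Stmn2 and Dpysl3. They were chosen by name, because MAP1B and TUBB2B were higher after DOT1L loss or EPZ-5676 in these same libraries. All 8 were among 26457 genes listed for the human guide libraries and among 22673 listed for the mouse libraries, and 7 (all but STMN2) were among the 15899 listed for the DMSO and EPZ-5676 libraries. A filter on low counts kept 7 of the 8 in each set: STMN2 failed it in the guide libraries and Stmn2 in the mouse libraries. In fits of single mouse lines Dpysl3 also failed it in Hepa1-6 and Tubb3 in Hep53.4.

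Microtubules are polymers of alpha- and beta-tubulin dimers, and each kind of tubulin is encoded by a small family of closely related genes called isotypes. TUBB3, TUBB2A, TUBB2B and TUBA1A supply much of the tubulin of growing neurons, whereas TUBB6 is found in many non-neuronal tissues and TUBB4B, TUBB and TUBA1B serve most dividing cells. MAP1B binds and stabilises microtubules in growing axons, STMN2 (stathmin-2) binds free tubulin dimers at the growth cone, and DPYSL3 (CRMP4) belongs to the collapsin response mediator family that links guidance cues to the cytoskeleton. DOT1L is the enzyme that methylates histone H3 on lysine in its globular core, a mark found along transcribed genes, and EPZ-5676 (pinometostat) is a small-molecule inhibitor of its catalytic site.

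Total RNA was sequenced from HuH-7, a human hepatocellular carcinoma line, and from 3 mouse lines, Hepa1-6 and Hep53.4 (both labelled hepatocellular carcinoma) and LLC (Lewis lung carcinoma). HuH-7 cells carried the control guide sgNeg2 (labelled wild type) or 1 of 2 guides against DOT1L, sg1 or sg2 (labelled knockout), each without and with IFN, with 2 libraries per group. Other HuH-7 cells received DMSO or EPZ-5676, the latter for 7 days, with 3 libraries each, and every mouse line carried sgNeg2, sg1 or sg2 against Dot1l, with 2 libraries each. The sources used here do not give the interferon's type, dose and time, the EPZ-5676 dose, or whether libraries of a group came from separate cultures or clones. Any p-value therefore speaks only of the scatter among the sequenced libraries, which may be technical.

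DOT1L counts checked the labels, and every edited library was lower than its controls. In HuH-7 without IFN, DOT1L stood at 75.4 and 73.1 CPM, which are counts scaled to a common library size with sgNeg2, 35.6 and 32.1 with sg1, and 40.4 and 34.8 with sg2. Mouse Dot1l means were 43.6 CPM in control and 15.5 CPM in edited Hepa1-6, 23.4 and 14.7 CPM in Hep53.4, and 61.1 and 30.5 CPM in LLC. Libraries held 42637155 to 61227426 counts, except the 6 HuH-7 guide libraries without IFN, which held 19580588 to 22649969. Those 6 also stood apart in kind: histone genes took 0.827% to 1% of their counts against 0.0329% to 0.0472% in the 6 IFN libraries, and small nuclear, nucleolar and Cajal body RNA genes 3.24% to 5.9% against 0.0102% to 0.0118%. Hepatocyte markers matched the liver labels in HuH-7, where 13 of 13 reached 1 CPM in every guide group, and in part in Hepa1-6 (9 of 13) and Hep53.4 (7 of 13), while LLC had 1 of 13. Within groups, the libraries of HuH-7 sg2 without IFN (chi-square per degree of freedom 24.7) and of Hepa1-6 sg1 (62.6) differed more than those of other groups (2.81 to 8.64). Without sg2 replicate 1 or 2 the HuH-7 log2 changes described next were 1.87 and 1.82 for MAP1B, 1.45 and 1.47 for TUBB2B and 1.95 and 2.07 for TUBA1A, and without Hepa1-6 sg1 replicate 1 or 2 the mouse change was 0.23 and 0.22 for Tuba1a and -0.01 and -0.10 for Map1b.

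Promoters of the 4 genes on which the HuH-7 results turn are shown first, because 3 of them (MAP1B, TUBB2B and TUBA1A) were higher together and TUBB2A is the close copy and chromosomal neighbour of TUBB2B. Each is the 250 bases before the RefSeq start on GRCh38.p14, written 5′ to 3′ on the gene's strand, with capitals marking a TATAAA box, a GGGCGG box or a CCAAT box on either strand.
MAP1B, chr5:72107225-72107474, plus strand: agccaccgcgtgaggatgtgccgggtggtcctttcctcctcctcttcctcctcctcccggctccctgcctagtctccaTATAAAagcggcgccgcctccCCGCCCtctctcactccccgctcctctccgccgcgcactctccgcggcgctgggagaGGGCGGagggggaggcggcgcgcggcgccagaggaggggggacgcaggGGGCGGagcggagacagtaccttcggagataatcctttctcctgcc
TUBB2B, chr6:3227654-3227903, minus strand: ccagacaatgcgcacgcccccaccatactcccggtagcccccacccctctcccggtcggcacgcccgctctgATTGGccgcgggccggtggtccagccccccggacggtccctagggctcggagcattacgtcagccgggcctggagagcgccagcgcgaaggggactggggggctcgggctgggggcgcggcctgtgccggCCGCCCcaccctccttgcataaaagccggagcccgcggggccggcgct
TUBB2A, chr6:3157545-3157794, minus strand: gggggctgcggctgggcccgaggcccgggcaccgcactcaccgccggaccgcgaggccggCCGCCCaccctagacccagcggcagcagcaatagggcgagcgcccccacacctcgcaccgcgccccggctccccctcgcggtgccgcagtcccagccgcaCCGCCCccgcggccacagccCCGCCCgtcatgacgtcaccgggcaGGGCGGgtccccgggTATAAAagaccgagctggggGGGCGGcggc
TUBA1A, chr12:49189081-49189330, minus strand: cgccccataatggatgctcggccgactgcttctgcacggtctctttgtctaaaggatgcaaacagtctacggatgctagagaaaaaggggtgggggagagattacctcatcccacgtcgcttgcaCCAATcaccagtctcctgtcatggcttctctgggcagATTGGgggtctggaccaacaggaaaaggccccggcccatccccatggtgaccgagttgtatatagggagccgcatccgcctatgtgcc
By exact matches, the printed windows shared no single layout of the 3 motifs. They follow the RefSeq starts, and those of TUBB2B and, but for a few bases, MAP1B and TUBA1A lie inside the wider GENCODE spans given further on. MAP1B had TATAAA at 172 bases before its start and 3 GGGCGG boxes. A second RefSeq start of MAP1B, further into the gene and not printed, had TATAAA at 30 bases and 2 GGGCGG boxes, and TUBB2A had TATAAA at 30 bases before its start and 5 GGGCGG boxes. TUBB2B had no TATAAA, 1 GGGCGG box and 1 CCAAT box at 178 bases on the opposite strand, and TUBA1A had 2 CCAAT boxes, at 125 bases on its own strand and 88 bases on the opposite strand. Among 34943 RefSeq promoters of the same length, 10.8% held TATAAA, 42.5% GGGCGG and 32% CCAAT on either strand. Matches of the 3 motifs did not overlap in these 4 promoters, and a match describes letters, not a bound site. Near forms were not counted, such as cataaa in TUBB2B and tatata in TUBA1A, both close to the start. The promoters of TUBB2A and TUBB2B were identical at 64.5% of 217 aligned bases. That is little above TUBB2B with TUBA1A at 64.2%, and the other pairs of these 4 promoters gave 54.5% to 61.6%. RefSeq entries matched 7 of the 8 genes.

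The coding sequences of the TUBB2 pair are far more alike than their promoters, which bears on how well reads separate them. The last 60 coding bases of 4 beta-tubulin genes, which encode the acidic tail where isotypes differ most, are written 5′ to 3′ from GENCODE v29 on GRCh38, with capitals where a base was not paired with an identical TUBB2A base in a gapped global alignment of the whole coding sequences.
TUBB2A, chr6:3153866-3153925, minus strand: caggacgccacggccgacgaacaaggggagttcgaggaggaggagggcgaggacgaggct
TUBB2B, chr6:3224754-3224813, minus strand: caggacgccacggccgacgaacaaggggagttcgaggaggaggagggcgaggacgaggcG
TUBB3, chr16:89935742-89935801, plus strand: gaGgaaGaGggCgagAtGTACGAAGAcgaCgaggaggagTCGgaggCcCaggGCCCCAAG
TUBB4B, chr9:137243494-137243553, plus strand: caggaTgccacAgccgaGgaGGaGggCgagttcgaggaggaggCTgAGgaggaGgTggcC
By that alignment 1 of the 60 bases of TUBB2B had no identical TUBB2A partner, 28 of TUBB3, 21 of TUBB6 and 14 of TUBB4B. The tails differ in length, so the letters of TUBB3 cannot be read against TUBB2A place by place. Over the whole coding sequence TUBB2A and TUBB2B were identical at 1313 of 1338 bases (98.1%), and TUBA1A and TUBA1B at 97.2%. Of all 50-base windows of the TUBB2B transcript, 47.3% also occur in TUBB2A, and 60.3% of TUBB2A windows occur in TUBB2B. For TUBA1A the share found in other tubulin genes tested was 40.9%, for TUBB3 8.84% and for TUBB6 0.993%. MAP1B, which is no tubulin, shared 0 with them, but its own relatives were not searched, so the 0 does not show that its reads are unique. How the authors assigned such reads is not given in the sources used here, so TUBB2A, TUBB2B and TUBA1A counts are uncertain in this respect, and results for the TUBB2 pair were recomputed with both genes summed.

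On GRCh38 (GENCODE v29), MAP1B spans chr5:72107234-72209570 on the plus strand, TUBB2A chr6:3153669-3157526 and TUBB2B chr6:3224261-3231730 on the minus strand, with 66734 bases between the last 2. TUBB3 spans chr16:89921392-89938761 and TUBB6 chr18:12307669-12344320 on the plus strand, and TUBA1A chr12:49184796-49189324 and DPYSL3 chr5:147390811-147510056 on the minus strand. TUBB2B overlaps PSMG4, TUBB6 overlaps AFG3L2, and TUBA1A overlaps the start of TUBA1C. Whether counting used strand is not given, so reads in these overlaps cannot be told apart.

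The question put to the HuH-7 libraries was how loss or inhibition of DOT1L changes expression. MAP1B, TUBB2B and TUBA1A were higher in every knockout and every EPZ-5676 library than in every matching control, while TUBB6 was slightly lower or overlapped. Since the genes were chosen on these contrasts, their values are a description and carry no test, and in bulk RNA fewer cells of a type and less RNA per cell cannot be told apart. Without IFN, 3 of the 7 genes that passed the filter met the call rule (edgeR quasi-likelihood test, adjusted p below 0.05) on the higher side and 0 on the lower. Over all 16448 genes tested the shares were 6.95% and 4.38%. With IFN the count was again 3 higher and 0 lower, beside 7.11% and 5.27%, and with EPZ-5676 it was 6 higher and 1 lower, beside 15.1% and 18.6%. The median log2 change of the 7 genes was 1.46 without IFN, 0.63 with IFN and 1 with EPZ-5676, against medians over all genes tested of 0, -0.06 and 0.01. With 7 genes each median is the value of 1 gene, namely TUBB2B, DPYSL3 and MAP1B in that order. DPYSL3 was near the limit of detection, and its 0.63 ± 0.53 with IFN came from overlapping libraries, so that median carries little weight. DPYSL3 is also 1 of the 6 higher with EPZ-5676, again with overlap.

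**Figure D1:**
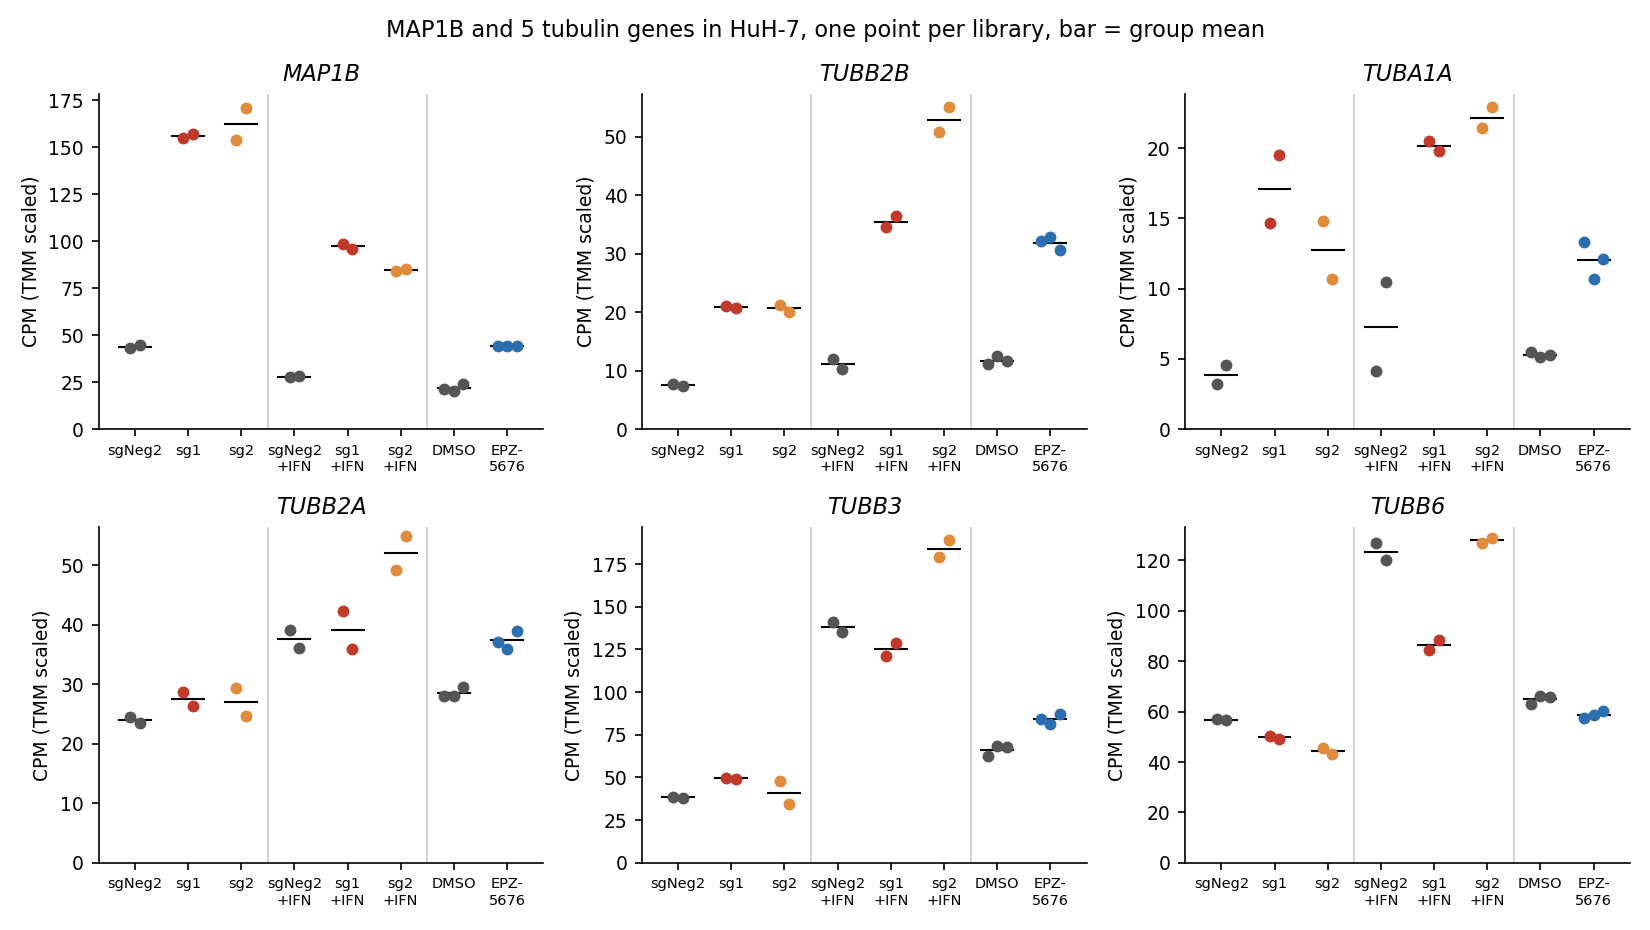
Scaled CPM of MAP1B, TUBB2B, TUBA1A, TUBB2A, TUBB3 and TUBB6 in each HuH-7 library, with points for libraries, bars for group means and panels on separate linear axes that start at 0. MAP1B, TUBB2B and TUBA1A points of the knockout and EPZ-5676 groups lie above all points of their own controls, whereas TUBB2A and TUBB3 overlap with their controls in at least 1 guide comparison and TUBB6 is never higher throughout.

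MAP1B, the microtubule-stabilising protein of growing axons, was measured at 43.3 and 44.7 CPM with sgNeg2 without IFN. It reached 155 and 157 CPM with sg1 and 154 and 171 CPM with sg2. Both guides thus gave nearly the same level, and no knockout library came near a control. The log2 change was 1.86 ± 0.09 (standard error, 4 knockout against 2 control libraries), a 3.62-fold difference.

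With IFN, MAP1B stood at 27.7 and 28.4 CPM with sgNeg2, 98.5 and 96.1 CPM with sg1 and 84.1 and 85 CPM with sg2. Here the guides separated slightly, sg1 above sg2, and both stayed far above the control. The log2 change was 1.70 ± 0.09, or 3.24-fold. In the inhibitor experiment MAP1B was at 21.5, 20.6 and 24.2 CPM with DMSO and at 44.3, 44.4 and 44.5 CPM with EPZ-5676. The 3 treated libraries were almost identical, and the change of 1.00 ± 0.05 on the log2 scale, a 2.00-fold difference, was smaller than in either knockout setting. MAP1B kept these values closely over the alternative settings tried: 1.81 to 1.87 without IFN, 1.66 to 1.76 with IFN and 0.95 to 1.08 with EPZ-5676.

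TUBB2B, a beta-tubulin of migrating and axon-forming neurons, stood at 7.71 and 7.41 CPM with sgNeg2 without IFN. It reached 21.0 and 20.7 CPM with sg1 and 21.2 and 20.1 CPM with sg2, so the guides gave the same level. The log2 change was 1.46 ± 0.19. With IFN the controls stood at 12 and 10.3 CPM, sg1 at 34.5 and 36.5 CPM and sg2 at 50.8 and 55.0 CPM. The guides did not overlap here, sg2 being the higher, and the pooled log2 change was 1.99 ± 0.18. With DMSO TUBB2B was at 11.1, 12.5 and 11.6 CPM and with EPZ-5676 at 32.2, 32.8 and 30.7 CPM, a log2 change of 1.45 ± 0.06. For TUBB2B the inhibitor and knockout values without IFN stood side by side at 1.45 and 1.46, where for MAP1B they were 1.00 and 1.86; the experiments differ in time and controls, and the difference between them was not tested.

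TUBA1A, the alpha-tubulin isotype most abundant in developing neurons, was low and more scattered. Its sgNeg2 libraries held 3.19 and 4.56 CPM, sg1 14.7 and 19.5 CPM and sg2 14.8 and 10.7 CPM, a log2 change of 1.95 ± 0.34. With IFN the controls themselves differed, at 4.11 and 10.5 CPM, below sg1 at 20.5 and 19.8 CPM and sg2 at 21.4 and 22.9 CPM. That gave a log2 change of 1.52 ± 0.30, which became 2.36 without IFN sgNeg2 replicate 2 and 1.01 without IFN sgNeg2 replicate 1. EPZ-5676 libraries held 13.3, 10.7 and 12.1 CPM against 5.51, 5.15 and 5.29 CPM with DMSO, a log2 change of 1.18 ± 0.10. The abundant TUBA1B, from which 32.6% of TUBA1A windows cannot be separated, had means of 1050 CPM with sgNeg2 and 923 CPM in the knockout without IFN. Whether reads of TUBA1B, or of the overlapping TUBA1C, entered the TUBA1A counts was not tested.

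TUBB2A, the neighbour and near copy of TUBB2B, moved far less. Without IFN it stood at 24.5 and 23.5 CPM with sgNeg2, 28.7 and 26.4 CPM with sg1 and 29.4 and 24.7 CPM with sg2, a log2 change of 0.19 ± 0.14. With IFN the controls at 39.2 and 36.1 CPM overlapped with sg1 at 42.4 and 35.9 CPM, and sg2 lay above at 49.2 and 54.9 CPM. EPZ-5676 gave 37.2, 36.0 and 39.0 CPM against 28.1, 28.1 and 29.5 CPM, a log2 change of 0.39 ± 0.05 with no overlap. With TUBB2A and TUBB2B summed as 1 gene the log2 changes were 0.61 without IFN, 0.88 with IFN and 0.78 with EPZ-5676.

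TUBB3, the class III beta-tubulin widely used as a neuron marker, did not follow MAP1B. Without IFN it was at 38.7 and 38.1 CPM with sgNeg2, 49.6 and 49.2 CPM with sg1 and 48.1 and 34.2 CPM with sg2, so that the lowest value of all was a knockout library. With IFN sg1 lay below the controls (121 and 129 against 141 and 135 CPM) and sg2 above them (179 and 189 CPM). The guides thus sat on opposite sides of the control, and the pooled log2 change was 0.16 ± 0.18. EPZ-5676 libraries were higher without overlap, at 84.4, 81.5 and 86.9 CPM against 62.3, 68.4 and 67.7 CPM, a log2 change of 0.35 ± 0.03.

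TUBB6, the broadly expressed beta-tubulin among the 8, leaned the other way. Without IFN it stood at 57.1 and 56.6 CPM with sgNeg2, above sg1 at 50.5 and 49.1 CPM and sg2 at 45.6 and 43.2 CPM. With IFN sg1 was lower (84.5 and 88.6 CPM) and sg2 level (127 and 129 CPM) with the controls (127 and 120 CPM). EPZ-5676 gave 57.5, 58.8 and 60.1 CPM against 63.0, 66.1 and 66.0 CPM, a log2 change of -0.15 ± 0.04.

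DPYSL3 and STMN2 were at or near the limit of detection in HuH-7. DPYSL3 had 2 and 4 counts with sgNeg2 and 14, 18, 3 and 23 in the knockout libraries without IFN, which overlapped. With EPZ-5676 it had 36, 27 and 63 counts against 31, 8 and 12 with DMSO, a log2 change of 1.21 ± 0.43 that was 1.98 without DMSO replicate 1 and 0.76 without EPZ-5676 replicate 3. STMN2 had 1 count in a single sgNeg2 library and 0 in the other 11 guide libraries. The growth-cone stathmin was therefore not detected at this depth, before or after editing.

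**Figure D2:**
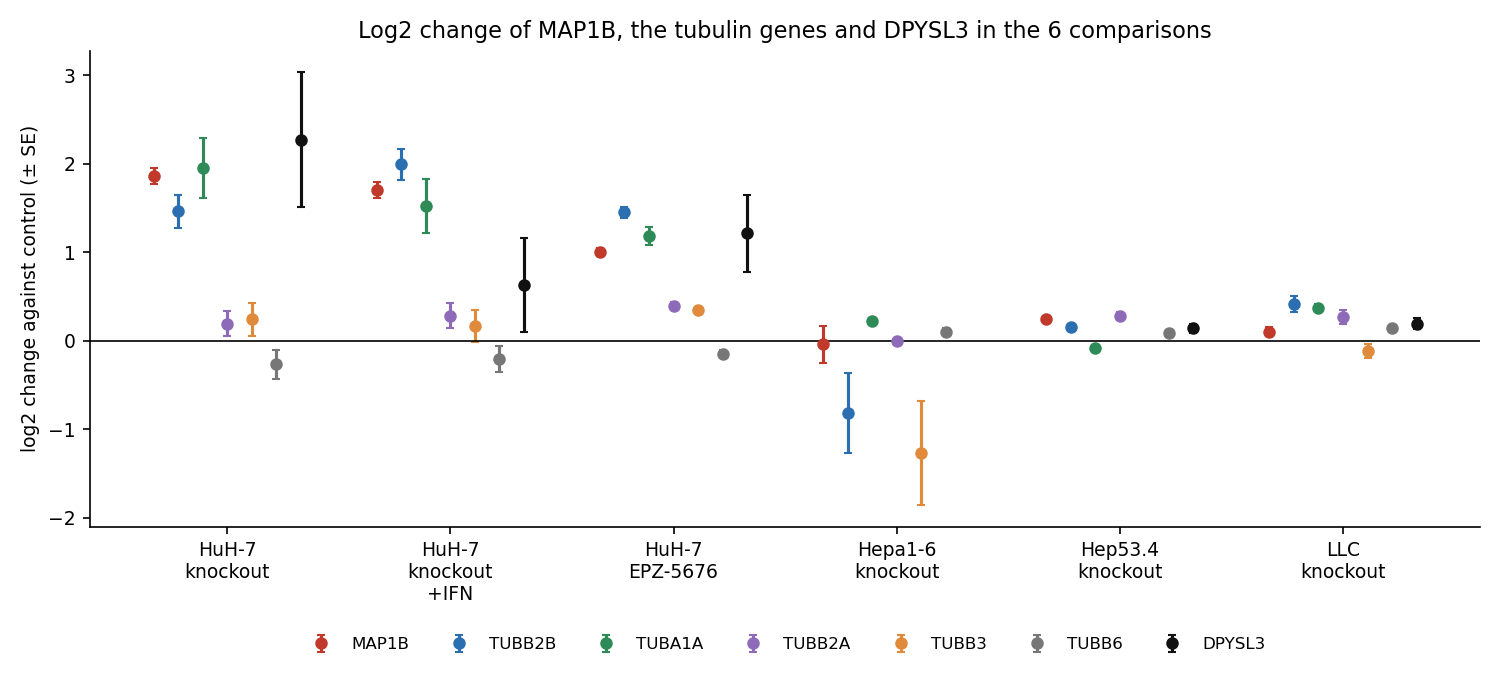
Log2 change against control (points) with its standard error (bars) for MAP1B, TUBB2B, TUBA1A, TUBB2A, TUBB3, TUBB6 and DPYSL3 in 6 comparisons, leaving out genes that failed the filter. MAP1B, TUBB2B and TUBA1A lie between 1.00 and 1.99 in the 3 HuH-7 comparisons, and MAP1B between -0.04 and 0.24 in the mouse lines.

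Per length, the 3 genes started from low levels in HuH-7, so their rank among tubulins matters. In sgNeg2 cells without IFN the order in CPM per kilobase of exon was TUBA1B at 643, TUBB4B at 197, TUBA1C at 110, TUBB6 at 18.2 ± 0.141 (SD, n = 2), TUBB2A at 15 ± 0.424 and TUBB3 at 11.6 ± 0.141. Below them came TUBB2B at 3.74 ± 0.106, MAP1B at 3.65 ± 0.0849, TUBB at 3.08 ± 0.509, TUBB4A at 2.67 ± 0.276, TUBA1A at 1.5 ± 0.375 and DPYSL3 at 0.0217. TUBB2B and MAP1B, and TUBB and TUBB4A, overlapped as neighbours in this order, while TUBB6, TUBB2A and TUBB3 did not. In the knockout MAP1B reached 13.2 ± 0.635 (SD, n = 4), TUBB2B 10.3 ± 0.251 and TUBA1A 5.78 ± 1.38. MAP1B then overlapped with TUBB3 at 13.8 ± 2.24, and TUBB2B stayed below TUBB2A at 17.1 ± 1.38. Even after editing, TUBA1A lay far below TUBA1B at 567 ± 55 CPM per kilobase.

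The makeup of the beta-tubulin pool followed from these levels. Among 7 beta-tubulin genes, by counts per kilobase, TUBB2B made up 1.48% ± 0.0636 (SD, n = 2) of the pool in sgNeg2 cells and 4.32% ± 0.49 (n = 4) in knockout cells. With IFN its share went from 0.979% ± 0.087 to 3.86% ± 0.216, and with the inhibitor from 1.71% ± 0.0777 to 4.48% ± 0.142 (n = 3 each). TUBB4B held most of the counted pool throughout, at 78.4% and 74.1% without IFN, 78.3% and 74% with IFN, and 78.6% and 73.6% with DMSO and EPZ-5676. TUBB2A had a higher share in edited cells (5.97% and 7.18% without IFN) and with EPZ-5676 (5.29% and 6.65%), and TUBB6 a lower share (7.25% and 6.33%, 6.17% and 5.35%). These shares use the same contrasts on which the genes were chosen and carry no test. TUBB, elsewhere a major isotype, took only 1.23% ± 0.219 in sgNeg2 cells. It lies on chromosome 6 among 69 coding genes within 1 megabase each side whose median was 0.128 CPM, against 8.56 CPM over 18553 coding genes, and why this stretch was low was not tested. Leaving TUBB out of the sum changed the TUBB2B share to 1.5% and 4.37% without IFN. With so few TUBB counts this step could hardly move the shares. It cannot show what they would be if TUBB was undercounted, which was not tested, so all shares are of the counted pool.

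**Figure D3:**
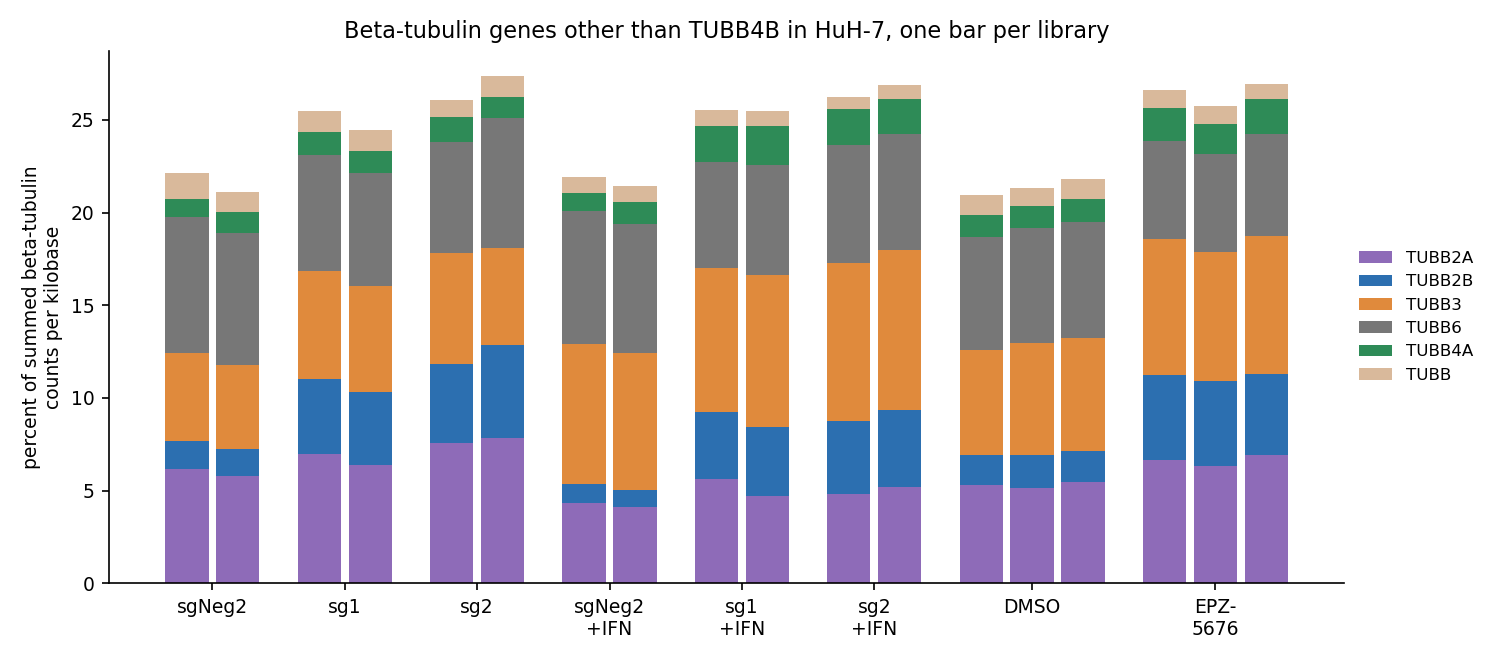
Share of each beta-tubulin gene other than TUBB4B in the summed beta-tubulin counts per kilobase, in percent on an axis from 0, with 1 stacked bar per HuH-7 library. The TUBB2B band is 1.44% to 1.53% in the sgNeg2 libraries and 3.94% to 5.02% in the knockout libraries without IFN.

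Other genes of the microtubule system were counted from lists drawn up for this comparison, with p-values adjusted over all genes tested. The HuH-7 list counts here and below stand beside the shares of all genes called higher and lower. These were 6.95% and 4.38% without IFN, 7.11% and 5.27% with IFN, and 15.1% and 18.6% with EPZ-5676. No list was tested against these shares. Of 14 other tubulin genes tested in HuH-7, 0 changed in the knockout without IFN (0 lower as well as 0 higher; the edgeR quasi-likelihood test). With IFN 2 rose and 1 fell, and with EPZ-5676 2 rose and 1 fell. TUBB4A, a beta-tubulin of myelinating cells and neurons, was in both sets: it rose from 15.9 to 29.1 CPM with IFN (log2 0.87 ± 0.17, edgeR adjusted p = 0.00349) and from 10.9 to 16.5 CPM with EPZ-5676 (0.60 ± 0.08, adjusted p = 1.93e-09). Without IFN sgNeg2 replicate 1 the IFN value was 0.78 with adjusted p = 0.0663. The median log2 change of the other tubulins was -0.10, -0.06 and 0.02 in the 3 comparisons.

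Microtubule-associated proteins other than MAP1B moved in both directions. Of 28 tested, 6 rose and 1 fell in the knockout without IFN, 4 rose and 2 fell with IFN, and of 27 tested 5 rose and 11 fell with EPZ-5676. MAP1A, the relative of MAP1B found in mature axons and dendrites, rose from 6.77 to 13.4 CPM without IFN (log2 0.99 ± 0.11, edgeR adjusted p = 8.9e-05) and from 10.4 to 17.2 CPM with IFN (0.73 ± 0.10, adjusted p = 0.000404). With EPZ-5676 its log2 change was 0.26 and was not called (adjusted p = 0.206). MAP2, a dendritic protein, rose from 1.07 to 2.66 CPM without IFN (1.31 ± 0.26, adjusted p = 0.00597), and MAP6, which protects microtubules from cold, from 0.493 to 1.58 CPM (1.67 ± 0.33, adjusted p = 0.00541). Both calls depended on single controls: without sgNeg2 replicate 2, MAP2 gave 1.44 with adjusted p = 0.0519 and MAP6 1.44 with adjusted p = 0.105, and without sgNeg2 replicate 1 MAP2 gave 1.15 with adjusted p = 0.113. The list medians were 0.01, -0.03 and -0.05.

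VASH1 and VASH2, the carboxypeptidases that remove the terminal tyrosine of alpha-tubulin, rose in all 3 HuH-7 comparisons. VASH1 went from 3.68 to 6.26 CPM without IFN (log2 0.76 ± 0.17, edgeR adjusted p = 0.0111), from 3.29 to 5.61 CPM with IFN (0.77 ± 0.16, adjusted p = 0.00689) and from 4.08 to 6.42 CPM with EPZ-5676 (0.66 ± 0.14, adjusted p = 6.5e-05). VASH2 went from 3.94 to 6.72 CPM (0.77 ± 0.19, adjusted p = 0.0176), from 3.56 to 7.01 CPM (0.97 ± 0.18, adjusted p = 0.00276) and from 6.79 to 9.49 CPM (0.48 ± 0.10, adjusted p = 0.000126). TTL, the ligase that puts the tyrosine back, was chosen for mention after its values were seen. It fell by 0.18 on the log2 scale with EPZ-5676 (adjusted p = 1.61e-08) and was not called without IFN (-0.10, adjusted p = 0.474) or with IFN (-0.16, adjusted p = 0.229). The guide-library calls did not survive the loss of a control: without sgNeg2 replicate 1 the changes without IFN were 0.69 for VASH1 (adjusted p = 0.155) and 0.70 for VASH2 (adjusted p = 0.192), and without sgNeg2 replicate 2 they were 0.80 (0.0949) and 0.79 (0.133). With IFN, VASH1 gave 0.53 (adjusted p = 0.122) without IFN sgNeg2 replicate 2, and VASH2 0.77 (adjusted p = 0.0599) without IFN sgNeg2 replicate 1. Among all tubulin-modifying enzymes tested, 2 of 19 rose and 0 fell without IFN, 2 rose and 1 fell with IFN, and of 18 tested 3 rose and 3 fell with EPZ-5676.

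Stathmin and collapsin response mediator relatives of STMN2 and DPYSL3 included few changes. Of 5 tested, 0 changed without IFN, 1 rose with IFN, and 2 rose and 2 fell with EPZ-5676. STMN3, a neuronal stathmin, rose from 39.0 to 58.2 CPM with IFN (log2 0.58 ± 0.15, edgeR adjusted p = 0.0241) and from 29.5 to 36.6 CPM with EPZ-5676 (0.31 ± 0.05, adjusted p = 7.94e-07). Its call with IFN was lost without IFN sgNeg2 replicate 1 (0.56, adjusted p = 0.167), IFN sgNeg2 replicate 2 (0.59, adjusted p = 0.146) or IFN sg2 replicate 1 (0.55, adjusted p = 0.0514). Axonal transport motors gave 4 higher and 1 lower of 18 without IFN, 2 and 1 with IFN, and 4 and 5 with EPZ-5676. DYNC1I1, an intermediate chain of cytoplasmic dynein, rose without IFN from 1.89 to 4.37 CPM (log2 1.21 ± 0.21, edgeR adjusted p = 0.00202), and the kinesin KIF21B from 15.8 to 24.1 CPM (0.61 ± 0.14, adjusted p = 0.0122). DYNC1I1 was not called without sgNeg2 replicate 2 (0.97, adjusted p = 0.0657), nor KIF21B without sgNeg2 replicate 1 (0.64, adjusted p = 0.108) or 2 (0.54, adjusted p = 0.152). The motor called lower, DYNC1H1, is the heavy chain of cytoplasmic dynein and its value without IFN was picked out after it was seen. It fell without IFN from 1180 to 1020 CPM (-0.21 ± 0.06, adjusted p = 0.0314), with IFN from 748 to 583 CPM (-0.36 ± 0.06, adjusted p = 0.00104) and with EPZ-5676 from 809 to 662 CPM (-0.29 ± 0.01, adjusted p = 2.1e-30). Tubulin folding and autoregulation genes gave 0 calls among 8 without IFN and with IFN, and 0 higher and 1 lower with EPZ-5676. Microtubule severing genes gave 0 higher and 1 lower of 7 in each guide comparison and 0 higher and 2 lower with EPZ-5676. Mitotic spindle genes, a check on cell division, gave 0 higher and 1 lower of 14 without IFN, 0 and 2 with IFN, and 1 and 10 with EPZ-5676.

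REST is the repressor that keeps many neuronal genes, TUBB3 and STMN2 among them, silent outside neurons. Its own log2 change was 0.08 without IFN (edgeR adjusted p = 0.803), -0.17 with IFN (adjusted p = 0.536) and -0.04 with EPZ-5676 (adjusted p = 0.326), none of them called. Of 14 genes of the REST complex, 0 rose and 4 fell without IFN, 0 and 2 with IFN, and 3 and 4 with EPZ-5676. CTDSPL, a phosphatase that acts with REST, fell in all 3: by 0.44 (adjusted p = 0.000931), by 0.65 (adjusted p = 2.42e-05) and by 0.33 (adjusted p = 2.12e-09) on the log2 scale. EHMT2, a histone methyltransferase, fell without IFN from 7.38 to 0.848 CPM (-3.12 ± 0.29, adjusted p = 1.82e-05). Its level in unedited cells varied widely between settings, at 2.5 CPM in IFN sgNeg2 and 1.09 CPM in DMSO libraries. EHMT2 lies on chromosome 6 (chr6:31879759-31897687), not far past the 1-megabase window of low counts around TUBB (chr6:30720201-30725426). Whether its counts share in that low stretch, and why its level varied, was not tested. The fall without IFN is read with these limits.

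Markers of other cell types were read beside these changes, and their part in the results was not tested. Of 26 neuron markers, 6 reached 1 CPM in sgNeg2 cells without IFN, 9 with sg1 and 8 with sg2. Among them NEFL, NEFM, ELAVL2, CHGA, RBFOX3 and BASP1 were at 0 in all 3 of those groups. The summed level ranged from 450 to 458 CPM with sgNeg2, 440 to 449 CPM with sg1 and 422 to 493 CPM with sg2, most of it UCHL1. The sg2 range spanned those of sgNeg2 and sg1, which did not overlap each other. Of 11 neuron markers tested, 2 rose and 0 fell without IFN, 5 and 0 with IFN, and 6 and 1 with EPZ-5676. SCG3, a secretory granule protein, rose from 0.579 to 3.05 CPM without IFN (log2 2.39 ± 0.27, edgeR adjusted p = 8.18e-05) and from 1.48 to 8.62 CPM with IFN (2.54 ± 0.21, adjusted p = 5.13e-06). UCHL1, the most abundant of the markers, had lower means instead. Without IFN it was at 395 CPM with sgNeg2, 368 with sg1 and 382 with sg2, and with IFN at 891, 763 and 838 CPM. With DMSO it was at 577 CPM and with EPZ-5676 at 523 CPM. Hepatocyte markers gave 1 higher and 9 lower of 13 without IFN, 4 and 2 with IFN, and 3 and 8 with EPZ-5676; their summed level was 16600 CPM with sgNeg2, 13100 to 13200 CPM with sg1 and 14300 to 15200 CPM with sg2. Fibroblast markers gave 2 higher and 1 lower of 5 tested without IFN, 3 and 1 with IFN, and 2 and 1 with EPZ-5676, with THY1 at 0 in the sg1 and sg2 groups without IFN. Leukocyte markers gave 2 higher and 0 lower of 4 in each of the 3 comparisons, and lung epithelial markers 0 of 2.

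**Figure D4:**
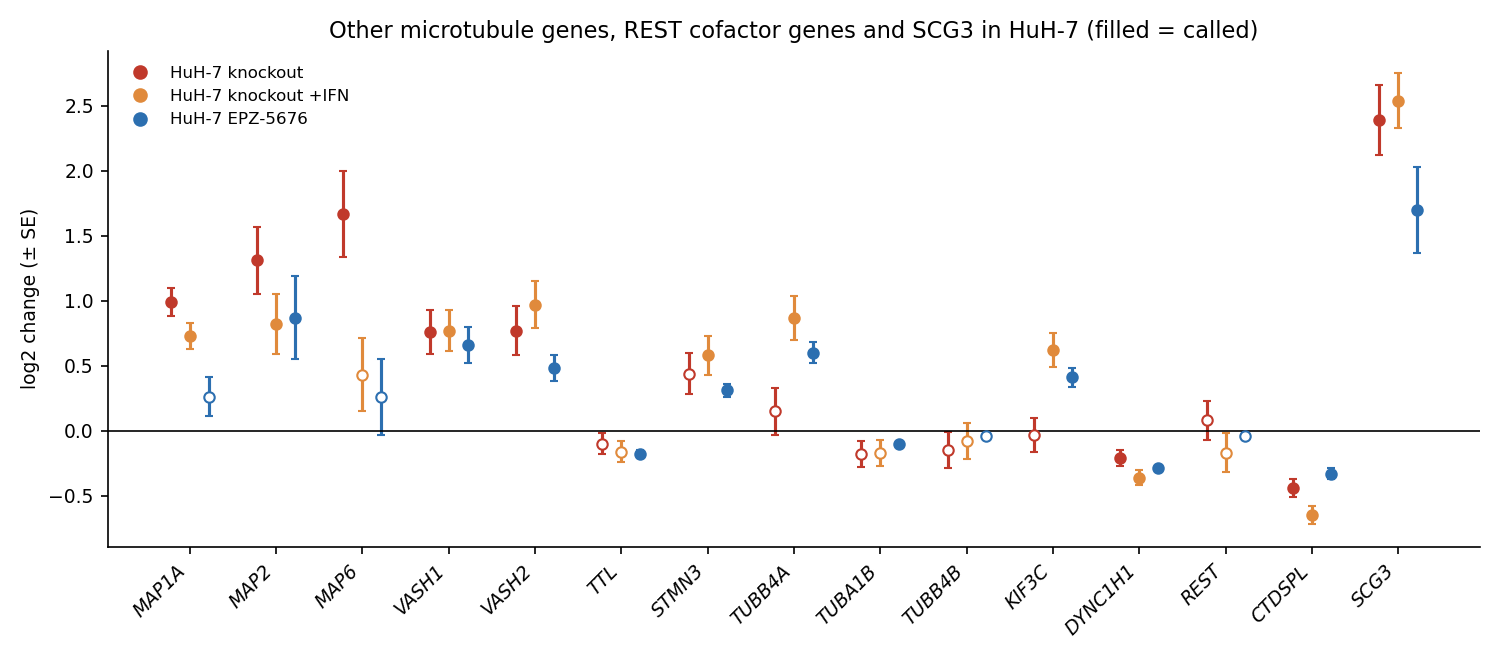
Log2 change (points) with standard error (bars) of 15 further genes in the 3 HuH-7 comparisons, filled where called at an adjusted p below 0.05 and open otherwise; TTL, TUBB4B and REST were added after their values were seen. VASH1, VASH2 and SCG3 are filled above 0 and CTDSPL and DYNC1H1 filled below 0 in all 3, while TUBB4B and REST are open throughout.

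The effect of IFN in sgNeg2 cells is another contrast than those the genes were chosen on, but all 4 of its libraries are controls of those contrasts, so its tests are not fully independent of the choice. MAP1B fell while the tubulins rose: 5 of the 7 genes tested were called higher and 1 lower. That share is read against a background in which 67.8% of 16448 genes were called in 1 direction or the other. MAP1B went from 44.0 to 28.1 CPM (log2 -0.65 ± 0.10, edgeR quasi-likelihood adjusted p = 5.52e-05, lower in 2 of 2 libraries). TUBB3 went from 38.4 to 138 CPM (1.85 ± 0.21, adjusted p = 5.66e-06) and TUBB6 from 56.9 to 124 CPM (1.12 ± 0.18, adjusted p = 0.000105), both without overlap. TUBB2A went from 24.0 to 37.7 CPM (0.65 ± 0.16, adjusted p = 0.00314). Of 14 other tubulins 10 rose and 0 fell, TUBA1B among them from 1050 to 2650 CPM.

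TUBB2B rose from 7.56 to 11.1 CPM (log2 0.56 ± 0.21, edgeR adjusted p = 0.0287) and TUBA1A from 3.87 to 7.33 CPM (0.92 ± 0.37, adjusted p = 0.0383), but both calls were fragile. TUBB2B was not called without sgNeg2 replicate 1 (0.59, adjusted p = 0.0812), without sgNeg2 replicate 2 (0.47, adjusted p = 0.143) or without IFN sgNeg2 replicate 1 (0.44, adjusted p = 0.15). TUBA1A gave 0.09 (adjusted p = 0.822) without IFN sgNeg2 replicate 2, the library at 10.5 CPM, and 0.69 (adjusted p = 0.214) and 1.15 (adjusted p = 0.0555) without sgNeg2 replicates 1 and 2. DPYSL3 was not called (1.70 ± 0.82, adjusted p = 0.0816). The IFN libraries are also the deeper ones with fewer histone and small RNA counts, so IFN and the kind of library cannot be told apart. When the DMSO libraries, which resemble the IFN libraries in both respects, stood in as control, MAP1B was 0.27 higher with IFN on the log2 scale (adjusted p = 0.00169) and TUBB2B was at -0.15 (adjusted p = 0.241), so the direction of both turned.

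The knockout changes without and with IFN were set against each other as their difference, the interaction of genotype and IFN. It is built from the changes on which the genes were chosen, so it is a description and carries no test. It was -0.16 ± 0.12 for MAP1B, 0.54 ± 0.25 for TUBB2B and -0.42 ± 0.43 for TUBA1A on the log2 scale, and 0.09 ± 0.20 for TUBB2A, -0.08 ± 0.26 for TUBB3 and 0.07 ± 0.22 for TUBB6. Of the 7 genes 0 met the call rule, beside 0.505% of all genes tested. MAP1B ranged from -0.20 to -0.06 over the alternatives.

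Genes whose HuH-7 pattern most resembled MAP1B were found by Pearson's r of log2(CPM + 1) over the 12 guide libraries, each centred on the mean of its IFN setting, among 10935 genes. ATRNL1 came closest (r = 0.997), then SPP1, which encodes osteopontin (0.995), TNFRSF11B, which encodes osteoprotegerin (0.995), the long non-coding RNA UCA1 (0.993) and CEACAM7 (0.993). For TUBB2B they were TGFBI (0.994), the complement gene C3 (0.992), ZC3H12A (0.989), CKAP4 (0.988) and AHSG (0.987). MAP1B and TUBB2B themselves had r = 0.935 with each other, MAP1B and TUBA1A 0.919 and TUBB2B and TUBA1A 0.88. TUBB3 (0.298) and TUBB6 (-0.632) were far from MAP1B. All 12 libraries share the same split into edited and control cells, and TUBB2B ranked 186 among the genes most like MAP1B.

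In the mouse lines, Map1b and the tubulins were measured at very different starting levels, and the changes after editing were small. Hepa1-6 had 2 higher and 0 lower of 6 tested, beside 14.5% and 18.3% of all genes. Hep53.4 had 4 higher and 1 lower of 6, beside 19.4% and 19.7%, and LLC 5 higher and 0 lower of 7, beside 16% and 17.5%. The genes were chosen on DOT1L loss in general, so these values too are a description. The median log2 changes were -0.03, 0.15 and 0.19, against medians of all genes of 0.01, 0 and 0.01.

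Map1b was at 2.53 and 3.02 CPM in Hepa1-6 controls, 2.49 and 2.97 CPM with sg1 and 2.09 and 3.13 CPM with sg2, with full overlap. In Hep53.4 it was at 117 and 121 CPM with sgNeg2, 139 and 144 CPM with sg1 and 137 and 141 CPM with sg2, a log2 change of 0.24 ± 0.03 without overlap. In LLC the controls at 138 and 157 CPM overlapped with sg1 at 173 and 165 CPM and sg2 at 151 and 154 CPM. The largest mouse change of Map1b, 0.24, stands beside 1.86 for MAP1B in HuH-7, and the difference between species was not tested.

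Tubb2b was at 57.6 and 58.1 CPM in Hep53.4 controls, 65.5 and 66.4 CPM with sg1 and 61.6 and 63.5 CPM with sg2. In LLC it was at 11.7 and 14.4 CPM with sgNeg2, 18.5 and 15.6 CPM with sg1 and 19.2 and 17.6 CPM with sg2. Both lines were higher after editing without overlap, by 0.15 ± 0.04 and 0.41 ± 0.09 on the log2 scale. In Hepa1-6 the controls held 29 and 78 counts and the edited libraries 23 to 38, which overlapped. Tubb2a followed the same lines: its log2 change was 0.28 ± 0.04 in Hep53.4 and 0.27 ± 0.08 in LLC, and -0.01 ± 0.04 in Hepa1-6, where it stood between 109 and 115 CPM in all 6 libraries.

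Tuba1a moved in a different order of lines. In LLC it was at 147 and 146 CPM with sgNeg2, 197 and 196 CPM with sg1 and 190 and 189 CPM with sg2 (log2 0.37 ± 0.04). Hepa1-6 gave 425 and 442 CPM, then 488 and 495 CPM and 511 and 504 CPM (0.22 ± 0.03), and Hep53.4 gave 239 and 231 CPM, then 215 and 222 CPM and 227 and 224 CPM (-0.08 ± 0.03). Edited libraries were therefore higher in LLC and Hepa1-6 and lower in Hep53.4, without overlap in any line. The log2 value of Tubb6 was 0.10 ± 0.04 in Hepa1-6, 0.08 ± 0.04 in Hep53.4 and 0.14 ± 0.04 in LLC, beside -0.27 ± 0.16 for TUBB6 in HuH-7 without IFN.

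Tubb3 was plain in LLC (13.6 and 13.7 CPM with sgNeg2, 12 to 13.7 CPM after editing) and nearly absent in Hepa1-6 (28 and 23 counts, then 5 to 13) and Hep53.4 (0 and 0 counts, then 1 to 2). Dpysl3 was at 43.8 and 44.8 CPM in Hep53.4 controls, against 49.9, 45.8, 50.2 and 49.5 CPM after editing, and at 30.2 and 31.4 CPM in LLC controls, against 36.5, 37.2, 35.1 and 34.2 CPM. Stmn2 was found in LLC alone beyond a single count, at 2 to 9 counts per library, with 0 counts in all 6 Hep53.4 libraries and 1 count in 1 Hepa1-6 library. In Hep53.4, 0 counts over the 2 controls allow up to 0.0286 CPM, by 3 counts over the group and for counting error only.

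**Figure D5:**
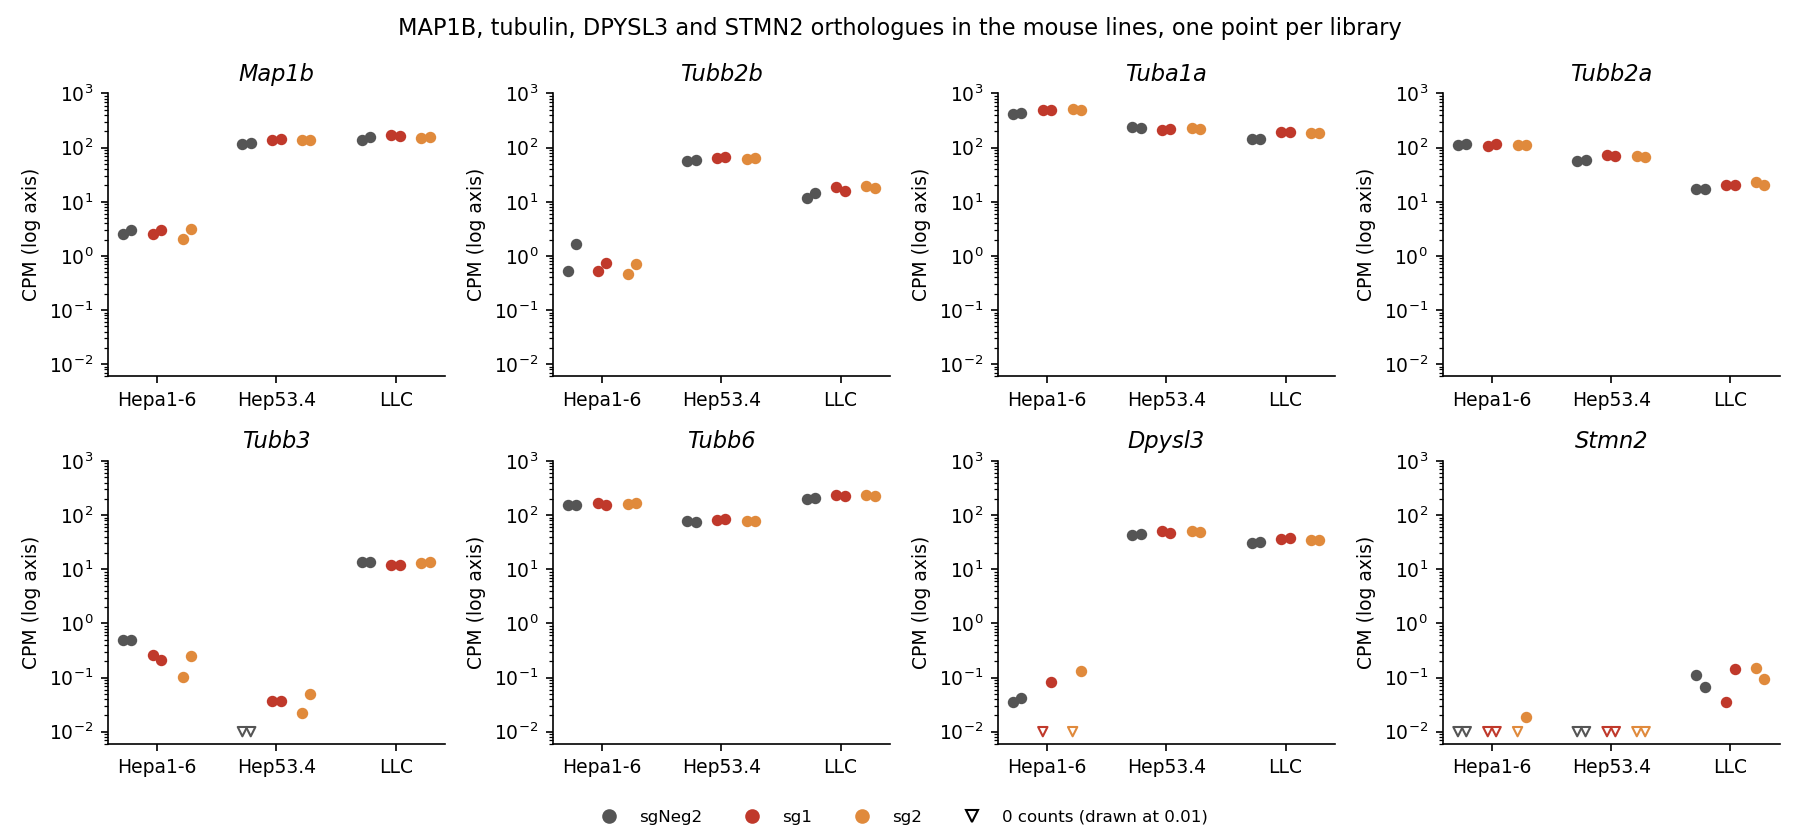
Scaled CPM on a log axis for Map1b, Tubb2b, Tuba1a, Tubb2a, Tubb3, Tubb6, Dpysl3 and Stmn2 in each mouse library, grouped by line and coloured by guide, with libraries at 0 counts drawn as open triangles at 0.01. Map1b lies near 3 CPM in Hepa1-6 and between 117 and 173 CPM in the other 2 lines, and the spread between guides is small beside that gap.

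Differences of the knockout change between mouse lines came from 1 fit of all 18 libraries and, being built from the changes just described, are given without a test. For Hepa1-6 minus Hep53.4, 1 of 7 genes met the call rule on the higher side and 2 on the lower, beside 24.7% of all genes. Tubb3 is among the lower ones, but it had 0 counts in Hep53.4 controls and its call carries no weight. For Hepa1-6 minus LLC the counts were 0 and 4, beside 24.6%, and for Hep53.4 minus LLC 0 and 1, beside 29.2%. Tuba1a had log2 differences of 0.29 ± 0.05 for Hepa1-6 minus Hep53.4, -0.19 ± 0.05 for Hepa1-6 minus LLC and -0.48 ± 0.05 for Hep53.4 minus LLC. The order of its change was therefore LLC, Hepa1-6 and Hep53.4. Tubb2a had differences of -0.30 ± 0.07, -0.32 ± 0.08 and -0.01 for the same pairs. Tubb2b had -0.93 ± 0.36 and -1.22 ± 0.36 for the pairs with Hepa1-6, values that rest on its low counts there: without Hepa1-6 sgNeg2 replicate 1 the first was -1.59, and without Hepa1-6 sgNeg2 replicate 2 the second was -0.21. Map1b had -0.28 ± 0.16, -0.17 ± 0.16 and 0.12 ± 0.08.

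Levels in sgNeg2 cells, a contrast on which the genes were not chosen, separated the mouse lines, although the same libraries serve as controls of the knockout changes. All 7 genes tested were called in each pair of lines, beside 76.2% of all genes for Hepa1-6 against Hep53.4, 81% for Hepa1-6 against LLC and 78.1% for Hep53.4 against LLC. Dpysl3 failed the filter in Hepa1-6 alone and Tubb3 in Hep53.4 alone. Both entered this fit through lines where they were higher, so their calls against those lines carry no weight beside the background. Map1b was lower in Hepa1-6 than in Hep53.4 (log2 -5.43 ± 0.10, edgeR adjusted p = 3.16e-26) and than in LLC (-5.74 ± 0.10, adjusted p = 4.01e-27), while Hep53.4 and LLC lay closer (-0.31 ± 0.07, adjusted p = 0.000181). Tubb2b ran from Hep53.4 at 57.9 CPM through LLC at 13.1 CPM to Hepa1-6 at 1.09 CPM. Its close copy Tubb2a ran from Hepa1-6 at 113 CPM through Hep53.4 at 57.7 CPM to LLC at 17.1 CPM. The 2 neighbouring genes thus had Hepa1-6 at opposite ends, and with both summed the Hepa1-6 and Hep53.4 controls did not pass the test (-0.02, adjusted p = 0.77), while Hepa1-6 lay above LLC by 1.92 on the log2 scale.

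Tuba1a was highest in Hepa1-6, above Hep53.4 by 0.88 ± 0.04 and above LLC by 1.56 ± 0.04, and Tubb6 was highest in LLC, at 205 CPM against 153 CPM in Hepa1-6 and 76.2 CPM in Hep53.4. Dpysl3 had 4654 counts over the 2 Hep53.4 controls and 3489 in LLC against 4 in Hepa1-6. Tubb3 was at least 478-fold higher in LLC, and at least 17.4-fold higher in Hepa1-6, than in Hep53.4, where 0 counts were set to 3 over the group. The line with the strongest hepatocyte markers, Hepa1-6 (summed 22900 to 23000 CPM, against 1190 to 1200 in Hep53.4 and 7.66 to 7.73 in LLC), was the one with the least Map1b, Tubb2b and Dpysl3, and the part of that difference between lines in the result was not tested. Neuron markers reached 1 CPM for 3 of 26 in Hepa1-6, 7 in Hep53.4 and 9 in LLC controls, with sums of 182 to 188, 357 to 361 and 286 to 291 CPM, and their part was not tested either. By counts, Tubb5 (the mouse TUBB) made up 79.2% of beta-tubulin counts in Hepa1-6 controls, 81.8% in Hep53.4 and 85.7% in LLC. Tubb2b made up 0.0382%, 2.14% and 0.342%, and after editing 0.0225%, 1.96% and 0.51%.

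Relatives that changed with DOT1L loss in HuH-7 varied among the mouse lines. List counts stand beside 14.5% of all genes higher and 18.3% lower in Hepa1-6, 19.4% and 19.7% in Hep53.4, and 16% and 17.5% in LLC. Map1a rose in Hep53.4 from 0.339 to 1.58 CPM (log2 2.21 ± 0.39, edgeR adjusted p = 3.64e-05) and fell in Hepa1-6 from 11.8 to 8.82 CPM (-0.41 ± 0.12, adjusted p = 0.0084), a call lost without Hepa1-6 sgNeg2 replicate 1 (-0.32, adjusted p = 0.159). Vash1 rose in LLC from 0.792 to 2.37 CPM (1.55 ± 0.28, adjusted p = 0.000228). Other tubulins gave 1 higher and 2 lower of 12 in Hepa1-6, 4 and 1 of 12 in Hep53.4 and 5 and 2 of 11 in LLC, with Tubb4b up in LLC (0.44 ± 0.04, adjusted p = 7.76e-08). Other microtubule-associated proteins gave 1 and 11 of 24, 4 and 6 of 24, and 11 and 6 of 27 in the same order of lines. Mitotic spindle genes gave 2 and 4, 6 and 1, and 11 and 0 of 13, and REST complex genes 2 and 4, 1 and 4, and 2 and 2 of 14. Fibroblast markers gave 0 higher and 4 lower of 6 in Hepa1-6, 0 and 1 of 3 in Hep53.4, and 5 and 0 of 7 in LLC.

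The genes closest in pattern to Map1b over the 18 mouse libraries, each centred on the mean of its line, reached lower values than in HuH-7. Among 9892 genes, Etfdh had r = 0.802, Ing2 0.782, Cdk20 0.779, Tnnt2 0.763 and Rint1 0.757, and Dpysl3 ranked 15 with 0.724. For Tubb2b they were the fibrillar collagen gene Col5a2 (0.893), Ppic (0.88), Col3a1 (0.856), Col5a1 (0.817) and Pim3 (0.802). Map1b and Tubb2b had r = 0.619 with each other, against 0.935 for their human counterparts.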

How the data were processed

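Total RNA from 36 libraries was sequenced by the authors, after RNeasy extraction and VAHTS Universal V6 library preparation per the labels' protocols. The deposited files hold raw read counts per gene symbol, which the authors made without normalization per the file headers. The submitters' processing notes name Trim Galore, HISAT2 2.2.1, SAMtools 1.9 and DESeq2 1.36.0. The counting program, the annotation and the use of strand are not named in those sources. Lines with no gene symbol (1721 in each Hepa1-6 sgNeg2 file and 1 in each Hep53.4 sgNeg2 file) held 0% of the counts and were left out.

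Tests on these counts used edgeR 4.0.16 under R 4.3.3 (TMM scaling, filterByExpr with a minimum count of 10 and a total of 15, quasi-likelihood test, Benjamini-Hochberg adjustment over all genes, threshold 0.05). Separate fits were made for the 12 HuH-7 guide libraries, the 6 inhibitor-experiment libraries and, for knockout changes, the 6 libraries of each mouse line; comparisons between mouse lines used 1 fit of all 18; sg1 and sg2 were pooled as knockout. The standard error of a log2 change is its absolute value divided by the square root of the F statistic of the quasi-likelihood test. It thus rests on the spread shared over the whole fit. CPM are counts divided by TMM-scaled library size. Lengths are union exons of GENCODE v29 basic, and promoters come from RefSeq. The code was tested on simulated data. Floors allow 3 counts and cover counting error only.

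The 8 genes and all lists were chosen with earlier results of these data known. From each list the text names up to 3 genes called with the largest change and a mean of at least 1 CPM; pattern genes are the 5 with the highest Pearson's r where mean CPM reached 5. Alternatives were DESeq2 1.42.0, other scaling, no filter, a replicate block, guides as groups, smaller fits, TUBB2A and TUBB2B summed, no histone or small RNA genes, DMSO controls for IFN, and leaving out each library. Leaving TUBB out of the isotype sum was chosen after seeing the data.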

Additional observations from a re-analysis of the deposited data

Results flagged for a closer look

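In HuH-7 cells without IFN, TUBB3 in sg2 replicate 2 stood at 34.2 CPM, away from the other 3 knockout libraries, which lay between 48.1 and 49.6 CPM. In Hep53.4, Dpysl3 in sg1 replicate 2 stood at 45.8 CPM, away from the other 3 edited libraries. Both gaps exceeded Dixon's critical value for 4 samples, which chance passes in about 1 in 20 groups, and 35 groups of 4 were tested.

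The difference of the knockout change between mouse lines met the call rule of edgeR for several of the genes. These differences are built from changes on which the genes were chosen, so they describe the libraries and are no independent support. For Hepa1-6 minus Hep53.4 the log2 differences were -0.30 for Tubb2a and 0.29 for Tuba1a, and Tubb3 was called with adjusted p = 0.0118, although Hep53.4 controls held 0 Tubb3 counts and without Hep53.4 sgNeg2 replicate 1 or 2 the adjusted p was 0.0605 or 0.0663. For Hepa1-6 minus LLC they were -0.32 for Tubb2a, -1.22 for Tubb2b, -1.18 for Tubb3 and -0.19 for Tuba1a. The Tubb2b value was -0.21 without Hepa1-6 sgNeg2 replicate 2, and Tubb3 no longer met the rule without Hepa1-6 sgNeg2 replicate 1. For Hep53.4 minus LLC the difference was -0.48 for Tuba1a.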

How the results depend on the processing

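Values of MAP1B and TUBA1A stayed above 0 in the 3 HuH-7 comparisons under every alternative run; TUBB2B ranged from 0.61 to 1.48, from 0.88 to 2.11 and from 0.78 to 1.49, lowest where it was summed with TUBB2A. Counts of called genes moved more. The knockout without IFN gave 1863 called genes, 4208 with guides as groups, 2899 in a fit of 6 libraries, and 564 to 1671 with 1 library left out (lowest without sgNeg2 replicate 1). With IFN the 2037 became 4182, 1000 and 960 to 2162 (lowest without IFN sgNeg2 replicate 2). The interaction gave 83, with DESeq2 409, guides as groups 1441, the replicate block 53, and 19 to 176 with 1 library left out (lowest without sgNeg2 replicate 2). In Hepa1-6 4095 became 2381 to 3976 and in LLC 4097 became 2519 to 4193, both lowest without sgNeg2 replicate 1. The cause of these moves was not tested beyond the smaller number of libraries.

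Directions turned for IFN with DMSO libraries as control: COL1A1 0.43, DPYSL4 -0.10, EHMT2 1.13, LYZ -0.04, MAP1B 0.27, TTLL6 1.01 and TUBB2B -0.15. With Tubb2a and Tubb2b summed, Tubb2a in controls was -0.02 (Hepa1-6 minus Hep53.4) and Tubb2b 1.92 (Hepa1-6 minus LLC). Residual correlations of same-numbered libraries were -0.266 to 0.114 in HuH-7 guide libraries and -0.04 to 0.146 in mouse. In the DMSO and EPZ-5676 set they were 0.08 to 0.118, each above the -0.132 to 0.027 of other pairs, a hint from the data and not the design. The replicate block is therefore an alternative only: it gave 1609 calls without IFN and 1765 with IFN. Low counts limit DPYSL3 and STMN2 in HuH-7, and Tubb3, Dpysl3 and Stmn2 in Hepa1-6 or Hep53.4.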
